A study of Mus musculus with 32 samples.

Results

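The genes described here are 8 on or beside the route from citrate and acetate to palmitate, the saturated fatty acid animal cells build first. They were chosen by name from 24890 gene symbols, as Acly, Acss2, Me1, Acaca, Acacb, Fasn, Mid1ip1 and Thrsp, by a rule that sets no threshold on a measured value. The choice was made with earlier results of these data known. All 8 passed the filter on low counts that left 15036 genes for testing. RNA-seq was made from E14 mouse embryonic stem cells, a wild-type line, as 32 bulk libraries in 16 groups of 2. The first arm, NrESC, was cultured with T0901317 at 10 µM, a drug-like compound that switches on LXR, the liver X receptors, which are nuclear receptors for oxidised sterols. The second arm, ESC, was passage-matched and had no T0901317 in its label. Both arms were sampled at passages 0, 2, 4, 6, 8, 10, 12 and 14. Both grew on gelatin in serum medium with LIF at 1000 U per mL, 3 µM of the GSK3 inhibitor CHIR99021 and 1 µM of the MEK inhibitor PD0325901. Whether a group's 2 libraries stem from different cultures is not in the labels, so p-values measure the spread between these libraries or passages, which may be technical. The labels give neither the length of treatment at passage 0 nor a batch. Whether passages are serial samples of the same culture is not in them either. All tests over the 8 passages take passages as independent. If they are serial samples, the p-values do not measure the spread between cultures.

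In the cytosol, ATP citrate lyase (Acly) splits citrate exported from mitochondria into acetyl-CoA and oxaloacetate, and acetyl-CoA synthetase (Acss2) makes acetyl-CoA from acetate. Acetyl-CoA carboxylase, encoded by Acaca and Acacb, adds a carboxyl group to give malonyl-CoA, and fatty acid synthase (Fasn) joins these units into palmitate with NADPH, to which malic enzyme (Me1) contributes. Mid1ip1 (MIG12) and Thrsp (Spot 14) are related small proteins, and MIG12 drives the carboxylase into its active filaments. In liver and fat, LXR raises this programme directly and through SREBP-1c, a product of Srebf1.

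Promoters are printed for the 4 genes on whose values the results turn most, so that the upstream letters can be read beside the values. The window of Acaca precedes a transcript start 65803 bases from the outermost RefSeq start of that gene and is not printed. Each is the 250 bases before a RefSeq transcript start on GRCm38.p6, read 5′ to 3′ on the gene's strand. The submitters' notes name mm9, so these coordinates are not those of the deposited files. Capitals mark CCAAT boxes (CCAAT or its reverse complement ATTGG) and GC boxes (GGGCGG or its reverse complement CCGCCC). Overlapping matches are counted separately. The Mid1ip1 window, chrX:10717115-10717364 on the plus strand, holds 2 GC boxes. The Thrsp window, chr7:97417551-97417800 on the minus strand, holds 2 CCAAT boxes. The Acss2 window, chr2:155517793-155518042 on the plus strand, holds 4 GC boxes and 1 CCAAT box. The Fasn window, chr11:120824548-120824797 on the minus strand, holds 3 CCAAT boxes, of which 2 overlap. It precedes a transcript start 619 bases from the outermost RefSeq start of the gene.
Mid1ip1: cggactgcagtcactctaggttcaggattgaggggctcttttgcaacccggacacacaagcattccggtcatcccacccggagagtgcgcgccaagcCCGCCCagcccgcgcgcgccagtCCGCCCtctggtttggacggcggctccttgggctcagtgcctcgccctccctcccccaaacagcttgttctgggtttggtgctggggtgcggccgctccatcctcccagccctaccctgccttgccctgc
Thrsp: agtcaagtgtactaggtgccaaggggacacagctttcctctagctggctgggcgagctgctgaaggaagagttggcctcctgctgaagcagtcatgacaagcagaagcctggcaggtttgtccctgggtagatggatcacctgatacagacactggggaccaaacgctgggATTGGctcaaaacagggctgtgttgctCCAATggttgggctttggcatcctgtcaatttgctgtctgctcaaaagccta
Acss2: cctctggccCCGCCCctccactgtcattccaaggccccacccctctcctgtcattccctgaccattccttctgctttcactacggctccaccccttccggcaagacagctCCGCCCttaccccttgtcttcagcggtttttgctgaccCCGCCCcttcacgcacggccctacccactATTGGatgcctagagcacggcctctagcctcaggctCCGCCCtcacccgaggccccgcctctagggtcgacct
Fasn: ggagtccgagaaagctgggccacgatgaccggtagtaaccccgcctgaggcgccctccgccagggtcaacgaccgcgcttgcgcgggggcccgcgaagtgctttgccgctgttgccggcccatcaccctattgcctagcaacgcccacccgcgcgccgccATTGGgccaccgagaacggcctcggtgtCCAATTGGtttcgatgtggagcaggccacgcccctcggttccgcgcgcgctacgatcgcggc
A CCAAT box stood in 33.8% of 32851 mouse windows of this length and a GC box in 32.7%. The sterol response element TCACNCCAC, at which SREBP binds, was searched on both strands and stood in 1.05% of windows. The E-box CACGTG stood in 6.02%, and DR4, the perfect direct repeat that LXR binds, in 0.0152%. None of these last 3 sets of letters was found in the windows of the 8 genes, which says only that they are not in these bases. The Acacb window precedes a transcript start 19197 bases from the outermost RefSeq start of that gene. Me1 has, beside the window at its outermost start, a further window at a start 8637 bases away.

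Over the 8 passages, 5 of the 8 genes rose in NrESC, namely Mid1ip1, Acaca, Fasn, Acss2 and Acly (edgeR's quasi-likelihood test, Benjamini-Hochberg adjusted p under 0.05). Of all genes tested, 28.3% rose and 27.2% fell by the same rule. The median log2 fold change, NrESC over ESC, was 0.52 for the 8 genes and 0.00 for all genes. A rise of at least 2-fold was called for 1.64% of genes, and of the 8 only for Mid1ip1, which had the tenth highest fold change of the 15036 genes. Acacb, Thrsp and Me1 did not pass. In TPM, all 16 NrESC libraries lay above all 16 ESC libraries for Fasn, Acaca and Mid1ip1, a separation seen for 1.51% of genes tested. In bulk RNA, more cells expressing a gene and more RNA per cell cannot be told apart.

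**Figure D1:**
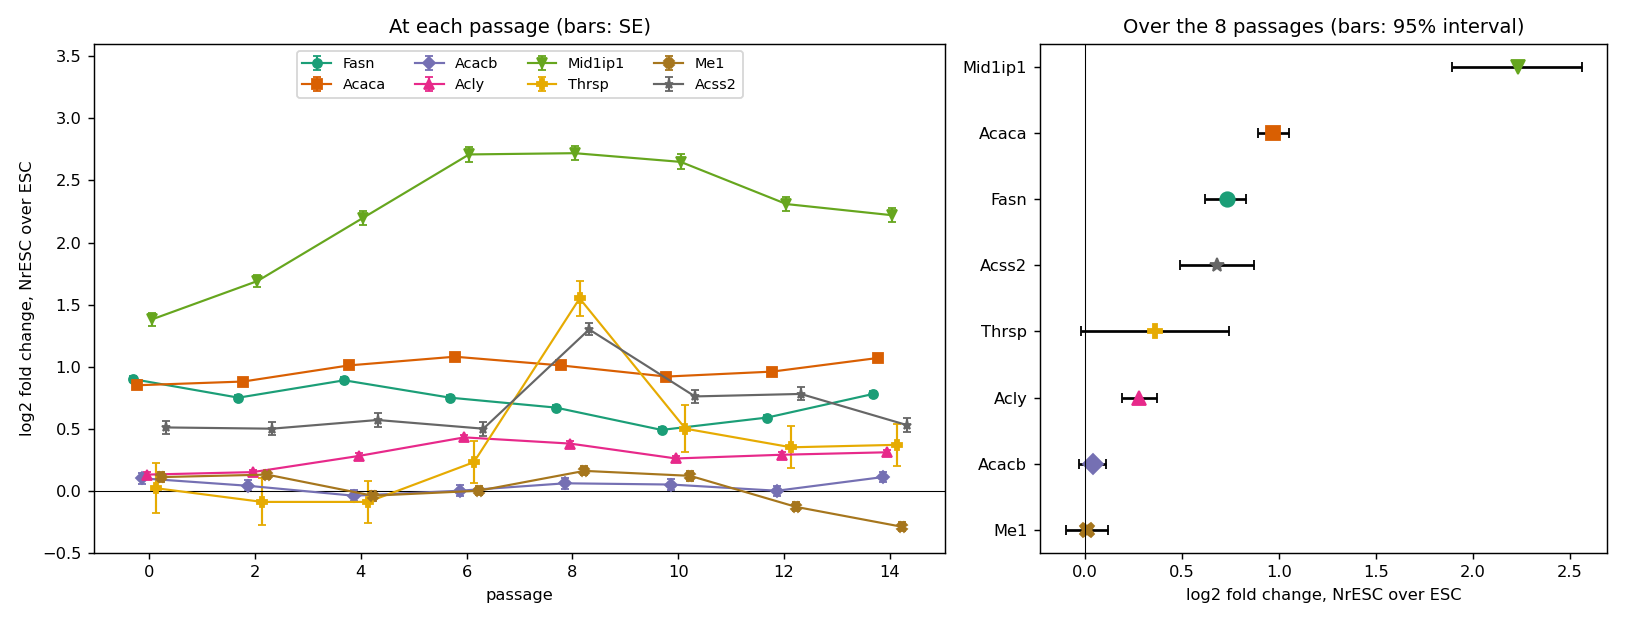
Log2 fold changes of the 8 genes, NrESC over ESC, at each passage with their SE (left) and over the 8 passages with 95% intervals (right). Mid1ip1 stands above the other genes at every passage, and Thrsp and Acss2 peak at passage 8 with log2 fold changes of 1.55 and 1.30.

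Depth was 24989651 to 50463483 estimated counts per library. The pluripotency genes Pou5f1, Nanog, Sox2, Zfp42, Esrrb, Klf4 and Dppa5a summed to 9720 to 12100 TPM in NrESC libraries and 8930 to 10400 TPM in ESC libraries, a sum that Dppa5a dominates. Of these 7, Dppa5a and Pou5f1 rose, with log2 fold changes of 0.45 and 0.15, and Nanog, Sox2 and Zfp42 fell, with -0.45, -0.32 and -0.32. The part of these shifts in the values of the 8 genes was not tested. The adipocyte markers Adipoq, Plin1, Fabp4 and Cfd stayed at or below 0.13 TPM in every library, and all 7 adipocyte markers, chiefly Lipe, summed to 11 to 13.5 TPM in NrESC and 9.87 to 13.2 TPM in ESC. The 7 hepatocyte markers summed to 0.42 to 1.14 TPM in NrESC and 0.26 to 2.04 TPM in ESC. The 7 fibroblast markers, chiefly Pdgfrb and Thy1, summed to 9.85 to 22 TPM in NrESC and 8.79 to 17.2 TPM in ESC, with Lum listed at 0 in all 32 libraries. Of the 5 fibroblast markers tested, Col1a1 and Pdgfrb rose, with log2 fold changes of 0.42 and 0.30, and 3 were not called. Abca1 and Abcg1, sterol exporters and LXR targets, rose with log2 fold changes of 3.10 and 4.17. Both NrESC libraries of passage 8 stood apart from the others on the second principal component of expression, at -42.2 and -40.7, so values without passage 8 are given where they matter.

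By level, Acly and Fasn had ranks 1 and 2 of the 8 genes in both arms at every passage. Acly averaged 302 ± 15.6 TPM over NrESC passages and 252 ± 23.1 TPM over ESC passages, and Fasn 230 ± 32.6 TPM in NrESC and 140 ± 16.2 TPM in ESC (SD, n = 8 passages). In NrESC the next 3 were Mid1ip1 at 51.3 ± 5.16, Acaca at 49.6 ± 3.66 and Me1 at 48.3 ± 3.44 TPM, neighbours that differed by less than their SD. Acss2 at 24.3 ± 7.50, Acacb at 10.6 ± 0.92 and Thrsp at 9 ± 5.65 TPM followed, the last 2 within their spread. In ESC the order was Me1 at 48.8 ± 6.12, Acaca at 25.6 ± 1.96, Acss2 at 15.0 ± 2.09, Mid1ip1 at 11.5 ± 3.42, Acacb at 10.4 ± 1.06 and Thrsp at 6.48 ± 1.60 TPM. There Mid1ip1 and Acacb were the neighbours that differed by less than their SD. The 8 genes summed to 636 to 774 TPM in NrESC libraries and 416 to 551 TPM in ESC libraries, ranges that did not overlap. Acly made up 41.7% of that sum in NrESC and 49.5% in ESC, Fasn 31.6% in NrESC and 27.4% in ESC, and Mid1ip1 7.09% in NrESC and 2.22% in ESC.

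**Figure D2:**
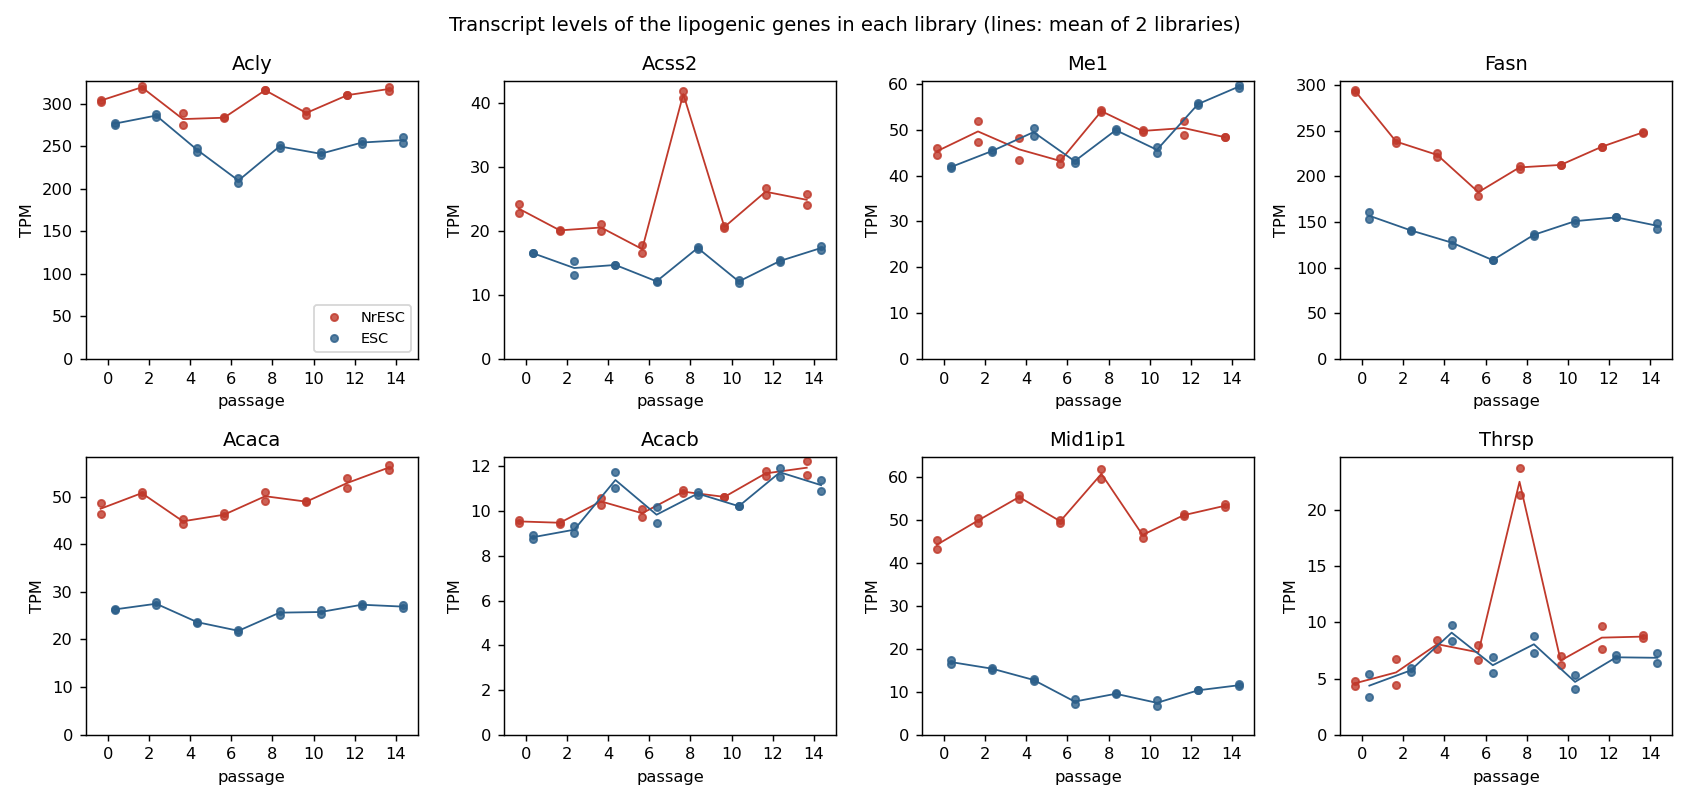
TPM of each of the 8 genes in every library by passage, with NrESC and ESC points and lines through the passage means. The arms are apart in all libraries for Fasn, Acaca and Mid1ip1, whereas those of Acacb and Me1 run through the same range.

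Acly, the enzyme that turns citrate into cytosolic acetyl-CoA, rose by the smallest step of the 5. Its libraries ran from 275 through a median of 307 to 321 TPM in NrESC, against 206 through 252 to 287 TPM in ESC. The 2 ranges overlapped over all passages, but at each passage both NrESC libraries were higher. The log2 fold change over the 8 passages was 0.28 ± 0.037 (SE), with a 95% interval of 0.19 to 0.37 and an adjusted p of 9.32e-05 by edgeR's quasi-likelihood test. At passage 0 Acly had 302 and 305 TPM in NrESC, against 278 and 275 TPM in ESC, a log2 fold change of 0.13. At passage 6 it had 284 and 283 TPM in NrESC, against 213 and 206 TPM in ESC, a log2 fold change of 0.43, the highest of the 8 passages. Passage 6 held the lowest ESC values of Acly.

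Acss2, which feeds acetate into the same acetyl-CoA pool, rose at all 8 passages and most at passage 8. Its libraries ran from 16.6 through a median of 22 to 42.0 TPM in NrESC, against 11.9 through 15.2 to 17.8 TPM in ESC. At passage 8 it had 40.9 and 42.0 TPM in NrESC, against 17.5 and 17.3 TPM in ESC, and its log2 fold change was 1.30 ± 0.048. At passage 0 it had 22.8 and 24.3 TPM in NrESC, against 16.5 and 16.6 TPM in ESC. Within each passage the arms did not overlap, and at the other 7 passages the log2 fold change lay between 0.50 and 0.78. Over the 8 passages it was 0.68 ± 0.080 (adjusted p = 4.55e-05 by edgeR), and without passage 8 it was 0.59 (adjusted p = 1.7e-06). Exons of Acss2 overlap those of Gss and Ggt7 on the other strand, and whether the counting used strand is not given in the sources used here. Gss had a log2 fold change of -0.22 over the passages. Ggt7, at no more than 2.85 TPM in any library, had 2.58 TPM in NrESC and 1.08 TPM in ESC at passage 8. Its log2 fold change was 1.31 at passage 8 and 0.50 over the passages (edgeR adjusted p = 0.00828). Transcripts of other genes, most often Gss, share 6.13% of the 50-base words of Acss2. The part of these genes in the Acss2 counts was not tested.

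Me1, which yields NADPH as it turns malate into pyruvate, did not differ over the 8 passages beyond their spread, with a log2 fold change of 0.01 (95% interval -0.10 to 0.12, edgeR adjusted p = 0.882). Its passages went different ways. At passage 8 Me1 had 53.8 and 54.3 TPM in NrESC, against 49.7 and 50.1 TPM in ESC, a log2 fold change of 0.16 (edgeR adjusted p = 0.000161). At passage 14 it had 48.4 and 48.4 TPM in NrESC, against 59.7 and 59.2 TPM in ESC, a log2 fold change of -0.29 (edgeR adjusted p = 3.45e-08). It rose at passages 0, 2, 8 and 10 and fell at passages 12 and 14. The difference among passages passed its own test (adjusted p = 1.58e-09 in edgeR's test of the passage contrasts). The calls at passages 0, 2, 10 and 12 were each lost when 1 library was left out, with adjusted p of up to 0.197, 0.316, 0.0812 and 0.0694, while those at passages 8 and 14 held. Transcripts of other genes share 28.3% of the 50-base words of Me1, most often those of the processed pseudogene Gm7049, which was not analysed here.

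The carboxylase genes went apart. Acaca, the cytosolic form that supplies malonyl-CoA for synthesis, had 44.3 through a median of 49.1 to 56.6 TPM in NrESC libraries, against 21.7 through 26.1 to 27.8 TPM in ESC libraries. The ranges did not overlap. At passage 0 Acaca had 46.2 and 48.6 TPM in NrESC, against 26.1 and 26.5 TPM in ESC. At passage 6, where its log2 fold change was highest at 1.08, it had 45.8 and 46.5 TPM in NrESC, against 22 and 21.7 TPM in ESC. As with Acly and Fasn, passage 6 held its lowest ESC values. The log2 fold change was 0.97 ± 0.033 over the 8 passages (edgeR adjusted p = 6.62e-09), and at single passages it lay between 0.85 and 1.08. Acacb, the form at the mitochondrial outer membrane whose malonyl-CoA limits fatty acid import, had 9.42 through 10.6 to 12.3 TPM in NrESC libraries, against 8.75 through 10.5 to 11.9 TPM in ESC libraries. Those ranges overlapped nearly whole, and its log2 fold change was 0.04 (95% interval -0.03 to 0.11, edgeR adjusted p = 0.285). At passage 14 alone it passed, with 12.3 and 11.6 TPM in NrESC, against 10.9 and 11.4 TPM in ESC (log2 fold change 0.11, edgeR adjusted p = 0.0368). Without ESC replicate 1 that adjusted p was 0.262, and without NrESC replicate 1 it was 0.234. Of the 50-base words of Acaca, 30.4% are shared with transcripts of other genes, most often the pseudogene Gm5182, which was not analysed here.

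The ratio of Acacb to Acaca was lower in NrESC at all 8 passages, with a mean log2 ratio of -2.22 ± 0.0946 in NrESC and -1.30 ± 0.188 in ESC (SD, n = 8). The difference of -0.93 ± 0.11 ran from -1.07 to -0.74 over the passages. An exact two-sided sign-flip test over the 8 passages gave p = 0.00781, the smallest it can give, and 0.0104 after adjustment over 4 ratios. The test takes passages as independent, which the labels do not state. The lower ratio restates the rise of Acaca beside a little changed Acacb and is not further evidence of that rise.

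Fasn, the synthase that assembles palmitate, had 179 through a median of 229 to 295 TPM in NrESC libraries, against 108 through 142 to 161 TPM in ESC libraries. These ranges did not overlap. Its log2 fold change was 0.73 ± 0.045 over the 8 passages (95% interval 0.62 to 0.83, edgeR adjusted p = 1.23e-06). At passage 0 Fasn had 295 and 292 TPM in NrESC, against 153 and 161 TPM in ESC, a log2 fold change of 0.90. At passage 10 it had 213 and 213 TPM in NrESC, against 149 and 153 TPM in ESC, a log2 fold change of 0.49, the lowest of the 8. At passage 6 it was lowest in both arms, with 179 and 187 TPM in NrESC and 109 and 108 TPM in ESC. The ratio of Fasn to Acaca was 6.18 in NrESC and 5.94 in ESC at passage 0, and lower in NrESC at the other 7 passages. Its mean log2 difference was -0.24 ± 0.164 (SD, n = 8 passages; exact two-sided sign-flip p = 0.0156, adjusted 0.0156). That difference restates the fold changes of Fasn and Acaca and is not further evidence of them.

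Mid1ip1, the partner that promotes carboxylase filaments, had the highest fold change of the 8 genes at every passage. At passage 0 Mid1ip1 had 45.2 and 43.2 TPM in NrESC, against 16.5 and 17.4 TPM in ESC. At passage 8 it had 61.9 and 59.5 TPM in NrESC, against 9.47 and 9.62 TPM in ESC. At passage 14 it had 53.7 and 52.9 TPM in NrESC, against 11.3 and 11.8 TPM in ESC. NrESC libraries kept to 43.2 to 61.9 TPM, whereas ESC libraries spread from 6.78 to 17.4 TPM, highest at passage 0 and lowest at passage 10. Its log2 fold changes at passages 0, 8 and 14 were 1.38, 2.72 and 2.22. Over the 8 passages it was 2.23 ± 0.14 (95% interval 1.89 to 2.56, edgeR adjusted p = 1.43e-06), or 4.68-fold. An unstranded count could not separate the antisense gene Gm14493, which was not analysed here. Transcripts of other genes, most often Gm14493, share 20.9% of the 50-base words of Mid1ip1.

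Thrsp, the related protein known as a thyroid hormone response gene of liver, passed the test at passages 8 and 10 only. At passage 8 it had 21.3 and 23.7 TPM in NrESC, against 8.82 and 7.29 TPM in ESC, a log2 fold change of 1.55 ± 0.14 (edgeR adjusted p = 7.76e-13). At passage 10 it had 6.21 and 7 TPM in NrESC, against 4.08 and 5.33 TPM in ESC, a log2 fold change of 0.50 (edgeR adjusted p = 0.0232), which became 0.283 without ESC replicate 1 and 0.133 without NrESC replicate 2. At passage 0 it had 4.36 and 4.8 TPM in NrESC, against 5.42 and 3.33 TPM in ESC. There, and at passages 2, 4 and 6, the libraries of the arms overlapped. Over the 8 passages its log2 fold change was 0.36 (95% interval -0.02 to 0.74, edgeR adjusted p = 0.0718). Without passage 8 it was 0.19 (adjusted p = 0.105), and the test of variation among passages then gave an adjusted p of 0.194, against 1.66e-07 with it. At passage 8 the median log2 fold change was -0.46 over the 7 pluripotency genes and 0.57 over the 5 tested fibroblast markers. Over all genes it was 0.01, with an SD of 0.844. Of the pluripotency genes, Dppa5a (0.72) and Pou5f1 (0.21) rose at passage 8 and the others fell. Of the fibroblast markers 3 rose, and Col1a2 and Pdgfra were not called. Whether these shifts bear on Thrsp and Acss2 was not tested.

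Mid1ip1 stood further above Thrsp in NrESC at every passage. The ratio of their TPM was 9.47 in NrESC and 3.80 in ESC at passage 0. It was 2.69 in NrESC and 1.18 in ESC at passage 8, and 6.04 in NrESC and 1.67 in ESC at passage 14. The mean log2 difference was 1.86 ± 0.441 (SD, n = 8 passages, exact two-sided sign-flip p = 0.00781, adjusted 0.0104). It restates the larger fold changes of Mid1ip1 and is not further evidence of them. The ratio of Acss2 to Acly, which sets the acetate route beside the citrate route in transcript level, was also higher in NrESC at all 8 passages. Its log2 difference averaged 0.40 ± 0.252 and ran from 0.06 at passage 6 to 0.91 at passage 8 (exact two-sided sign-flip p = 0.00781, adjusted 0.0104). Over 11 alternatives that average lay between 0.32 and 0.44. The higher ratio restates the larger fold changes of Acss2 and is not further evidence of them.

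**Figure D3:**
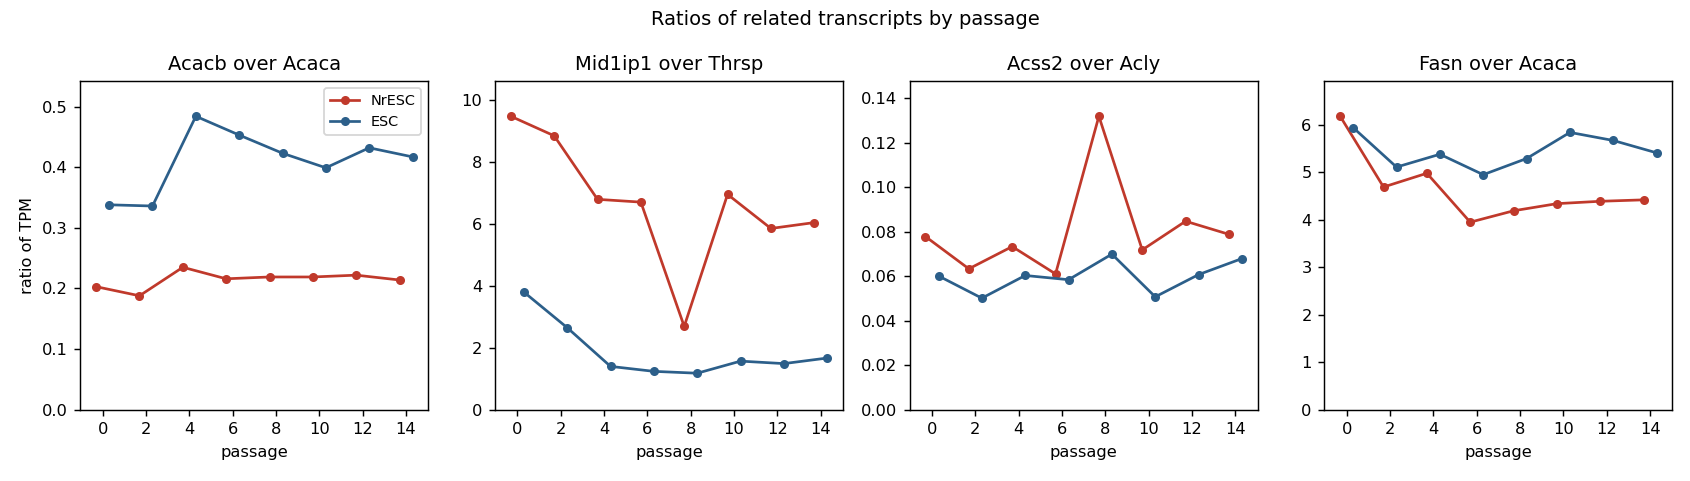
Ratios of the TPM means of 4 pairs of the genes by passage, NrESC and ESC, on linear axes from 0. Acacb over Acaca is lower and Mid1ip1 over Thrsp higher in NrESC at all 8 passages, and the NrESC curve of Acss2 over Acly peaks at passage 8 at 0.132.

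By edgeR's test at single passages, 6 of the 8 genes rose at passage 0, when 17.6% of all genes rose and 14.8% fell. There were 6 again at passage 2 (24.7% of all genes rose, 23.8% fell), 5 at passage 4 (27.4% rose, 26.9% fell) and 5 at passage 6 (23.6% rose, 25.1% fell). At passage 8 the count was 7 (35.2% rose, 34.6% fell), at passage 10 also 7 (27.0% rose, 28.5% fell), at passage 12 it was 5 (23.1% rose, 24.0% fell), and passage 14 had 6 (19.7% rose, 21.3% fell). Me1 was the gene that fell at passages 12 and 14. Both NrESC libraries lay above both ESC libraries in TPM for 7 of the 8 genes at passage 0 and 7 at passage 2, which 33.4% and 36.5% of all genes did. Passage 4 had 5 such genes of the 8 (28.3% of all genes), passage 6 also 5 (34.9%), passage 8 had 7 (38.9%) and passage 10 all 8 (37.8%). Passage 12 had 6 (35.1%) and passage 14 had 7 (31.4%). The median log2 fold change of the 8 genes was lowest at passage 0, at 0.32, and highest at passage 8, at 0.84, beside 0.01 for all genes at both. The fold change varied among passages for 7 of the 8 genes, all but Acacb (edgeR adjusted p = 0.247), and for 69.4% of all genes, so this is near what most genes did. No straight slope over passage was called by edgeR for any of the 8 genes. In NrESC 0.745% of genes had a called upward and 1.66% a called downward slope, in ESC 0.219% upward and 0.259% downward, and 0.0133% had a called downward difference of slopes. At an unadjusted p under 0.05, 1 of the 8 genes had a slope in NrESC (Acacb), 3 in ESC (Acacb, Me1 and Mid1ip1) and 1 a difference between them (Mid1ip1). By that rule 19.9% of all genes had a slope in NrESC, 16.6% in ESC and 2.89% a difference.

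The genes whose 8 fold changes lay nearest to those of each member were sought among 11603 genes, by the mean absolute difference in log2 fold change over the 8 passages. Scd1, the desaturase that acts on palmitoyl- and stearoyl-CoA, was nearest to Mid1ip1 at 0.153, followed by Mef2b at 0.482. Klf15 (0.147) and the fatty acid desaturase Fads2 (0.159) were nearest to Acaca, and Atf5 (0.0706) and Tapbp (0.152) to Fasn. Cyp4f13 (0.0941) and Trappc6a (0.0955) were nearest to Acss2, Ypel2 (0.143) and Cotl1 (0.147) to Thrsp, and Fkbp5 (0.0469) and Mboat7 (0.0482) to Acly. Plekha5 and Sec24a lay nearest to Acacb, and Vezf1 and Vps8 to Me1, all with small fold changes. Among the 8 genes, Acacb and Me1 were closest to each other at 0.0998 and Me1 and Mid1ip1 farthest apart at 2.23.

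Around these 8 genes, 62 further genes of 7 lists were tested, of which 30 rose and 10 fell over the 8 passages (edgeR adjusted p under 0.05), beside 28.3% of all genes that rose and 27.2% that fell. Counts in single lists rest on 6 to 13 genes and several lie near those shares. Of 8 genes that use or activate palmitate, 7 rose, with a median log2 fold change of 0.20, from Acsl3, a long-chain acyl-CoA synthetase, at 0.80 to the thioesterase Acot7 at 0.12. Of 11 genes of citrate supply and transport, 6 rose and 1 fell (median 0.10), with 0 to 2 that fell over 17 alternatives. The plasma membrane citrate transporter Slc13a5 had a log2 fold change of 0.69 and the mitochondrial oxoglutarate carrier Slc25a11 one of -0.11, whose call was lost without passage 6 (adjusted p = 0.0594). The mitochondrial citrate carrier Slc25a1, named outside the rule after its value was seen, had one of 0.35.

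Of 6 other genes of acetyl-CoA, 3 rose and 1 fell (median 0.11), from acetoacetyl-CoA synthetase Aacs at 0.68 to the acetyl-CoA transporter Slc33a1 at -0.47, with 2 that fell under a mean per group on 32 libraries. Of 13 genes for cofactors and control of the carboxylase and synthase, 5 rose and 2 fell (median 0.05). Only 3 rose without replicate 1 or in limma with a pseudocount of 0.1, and 5 fell with a mean per group on 32 libraries and 4 with the replicate block. Malonyl-CoA decarboxylase Mlycd, which removes malonyl-CoA, had a log2 fold change of 0.55 and the biotin and pantothenate transporter Slc5a6 one of -0.23. To the printed digits Hlcs, the ligase that attaches biotin, equalled Mlycd, and Prkag1, a subunit of AMP-activated kinase, equalled Slc5a6, both named after their values were seen. Of 8 genes of NADPH supply, 2 rose and 2 fell (median 0.04), though 1 to 4 rose over 17 alternatives (4 without passage 8, and 1 without passage 2, 4, 6, 10, 12 or 14), with Pgls of the pentose phosphate pathway at 0.26 and cytosolic isocitrate dehydrogenase Idh1 at -0.15. Of 6 genes of the separate mitochondrial fatty acid synthesis, 4 rose (median 0.17), between Cbr4 at 0.29 and Ndufab1 at 0.08, whose call was lost in 12 of 17 alternatives. That count was 2 without replicate 1, without replicate 2 or without passage 0, and up to 6 in other alternatives. Of 10 transcription factors of lipogenesis, 3 rose and 4 fell (median -0.03). Srebf1 was highest at 1.73, with a log2 fold change of 1.5 at passage 0 and 2.23 at passage 8, and the thyroid hormone receptor Thrb was lowest at -0.61. Thrb was scarce, with 0.174 TPM in NrESC and 0.281 TPM in ESC, passed at passages 6, 8 and 14 alone, and had -0.12 in limma on log2(TPM + 1), a scale that shrinks the change of a scarce gene. Srebf2 at 0.46 and Thra at 0.52 also rose and Mlxipl at -0.31 fell, named after their values were seen. The call of Mlxipl was lost without passage 12 (adjusted p = 0.0515).

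**Figure D4:**
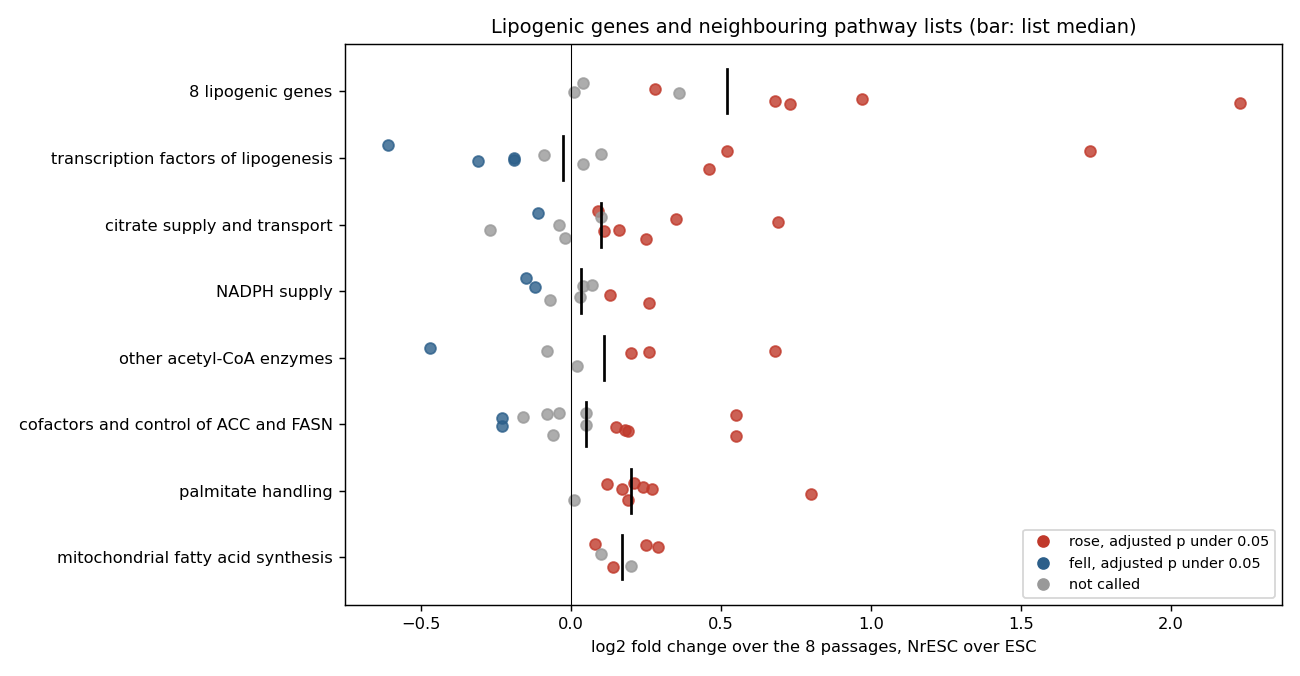
Log2 fold changes over the 8 passages, NrESC over ESC, for each tested gene of the 8 members and of the 7 lists around them, with called genes marked and list medians drawn. The members' median is 0.52, against -0.03 to 0.20 in the 7 lists.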

How the data were processed

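Bulk RNA-seq libraries of mouse embryonic stem cells were analysed from 2 deposited tables. The first holds expected counts per gene as deposited by the authors, of which 0.837% were fractional and were rounded here, and the second holds the authors' TPM, a level scaled to transcript length and library size. The submitters' processing notes name the build mm9 and, without roles, the tools RSEM, STAR, HTSeq 0.12.4, edgeR, DESeq2 and Cufflinks 2.2.1, and the strand setting of the counting is not given in the sources used here. All counts of the 8 genes were whole.

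Counts were tested with edgeR 4.0.16 in R 4.3.3, with TMM scaling, filterByExpr over the 16 groups, which left 15036 genes, the quasi-likelihood test and Benjamini-Hochberg adjustment over all genes tested at 0.05. For the difference over the 8 passages, the 2 libraries of a group were summed and arm and passage were fitted, with 7 residual degrees of freedom. Differences at each passage and their variation used 32 libraries with a mean per group and 16 residual degrees of freedom, and slopes used the summed libraries with 12. Ratios used TPM with a pseudocount of 0.1 and an exact two-sided sign-flip test. DESeq2 1.42.0 and limma 3.58.1 served as alternatives. The alternatives tried were other scalings, filters, units of replication and tests, each passage or replicate left out, and a replicate block.

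Depth was 24989651 to 50463483 counts per library. On simulated counts with known changes, the test over the 8 passages found 69% of genes changed 1.2-fold. It found 98% of those changed 2-fold, with 21 false calls of 188. At passage 14 the test with a mean per group found 56% and 81%, with 9 false calls of 146. Few genes were changed in the simulation, with the same spread between groups for every gene and none in the passage 14 run. In the data 28.3% of genes rose and 27.2% fell over the passages, so these rates need not hold there. Replicate libraries differed beyond sampling noise in all 16 groups, and each was kept. The genes and lists were chosen with earlier results of these data known. Genes named were the 8 members, the highest and lowest called gene of each list, the 2 nearest genes of each member among those whose mean log2 CPM reached 1, Abca1 and Abcg1, and any said to be named after their values were seen. A 50-base word counts as shared where another annotated transcript holds it on either strand. Promoter sequences are RefSeq's, on GRCm38.p6.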

Additional observations from a re-analysis of the deposited data

Results flagged for a closer look

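Passage 8 was the one passage at which single values of the 8 genes stood apart from the other 7 passages by Dixon's 95% criterion. In NrESC, Thrsp had 22.5 TPM and Acss2 41.5 TPM at passage 8, as means of 2 libraries. The log2 fold change, NrESC over ESC, at passage 8 was 1.55 for Thrsp and 1.30 for Acss2. These were 4 of 24 sets of 8 passage values tested, and chance alone flags a small share of such sets. The fold changes come from the same libraries as the TPM, so the sets are not independent. Both NrESC libraries of that passage also stood apart in expression as a whole, and the part of this in the 4 values was not tested.

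The difference between the arms varied among the 8 passages, by a test of that variation itself with edgeR, for 7 of the 8 genes, beside 69.4% of all genes tested. The adjusted p was 1.94e-14 for Fasn, 2.13e-06 for Acaca, 1.87e-11 for Acly, 7.58e-19 for Mid1ip1, 1.66e-07 for Thrsp, 1.58e-09 for Me1 and 6.4e-13 for Acss2. The log2 fold change ran from 0.49 to 0.90 for Fasn, 0.85 to 1.08 for Acaca, 0.13 to 0.43 for Acly, 1.38 to 2.72 for Mid1ip1, -0.09 to 1.55 for Thrsp, -0.29 to 0.16 for Me1 and 0.50 to 1.30 for Acss2. Without passage 8 the variation was still called for Acss2 (adjusted p = 0.00197) and was not for Thrsp (adjusted p = 0.194).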

How the results depend on the processing

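Over the 8 passages, Fasn, Acaca, Acly, Mid1ip1 and Acss2 kept their direction and their call in all 17 alternatives, with log2 fold changes, NrESC over ESC, of 0.70 to 0.76, 0.93 to 0.99, 0.26 to 0.30, 2.11 to 2.35 and 0.59 to 0.71. Between 5 and 7 of the 8 genes were called higher. Thrsp was called in 3 of the alternatives, namely with a mean per group on 32 libraries (0.35, adjusted p = 2.16e-06), without replicate 1 (0.45, adjusted p = 0.0404) and with the replicate block (0.38, adjusted p = 0.0124). Acacb was called in 1, the mean per group (0.04, adjusted p = 0.0146), which also gave 17 pathway genes called lower in place of 10. Replicate numbers did not pair the libraries (0 of 8 correlations between same-numbered libraries above 0.1, at most 0.0616); with the replicate block 6 of the 8 genes were called higher over the passages, and every count of members called at single passages was unchanged. Leaving out a replicate gave 3756 to 3777 genes called higher and 3610 to 3744 called lower, against 4258 and 4083. Without NrESC replicate 1, 0 of the 8 genes were called lower at passage 12 (DESeq2 and the other alternatives gave 1), where Me1 then had -0.10 (adjusted p = 0.0694), so that count ran from 0 to 1. Slopes fitted to 32 libraries were called for 1 of the 8 genes in NrESC and 4 in ESC, where 23.3% and 17.9% of all genes were called. Values that changed sign were all uncalled. Me1 became -0.01 without replicate 1, without passage 0, 2, 8 or 10, and in limma with either pseudocount, and its neighbour Vps8 ranged from -0.01 to 0.09 with a replicate left out. With single libraries left out, Thrsp ran from -0.24 to 0.47 at passage 0 (-0.05 without NrESC replicate 2), -0.38 to 0.23 at passage 2 and -0.22 to 0.04 at passage 4, and at passage 4 Acacb ran from -0.09 to 0.02 and Me1 from -0.09 to 0.03. Without passages 0 and 2, slopes per passage became 0.02 for Fasn and -0.03 for Thrsp in NrESC, 0.01 for Acly and -0.04 for Thrsp in ESC, and their differences -0.01 for Acly and Mid1ip1. The cause was not tested. The ratios kept their sign and call in all 11 alternatives. Thrsp, at 9 TPM in NrESC and 6.48 TPM in ESC on average, had the largest SE of the 8 genes over the passages.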
